A study of Mus musculus with 12 samples.

Results

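The proteasome is the barrel-shaped protease complex that degrades ubiquitin-tagged proteins, and its genes carry the symbol stem Psm followed by a letter for the family. The genes described here are those whose symbol begins with Psma to Psmg and a digit. They were found on probe sets annotated to a single gene symbol, with the probe set of highest mean signal standing for each gene, which gave 49 of the 18193 genes tested. They were measured in bone marrow-derived macrophages (BMDMs) of female C57BL6 mice on 12 GeneChip mouse arrays. Control cells were Trspfl/fl-LysM-Cre-/- and knockout cells (ΔTrspM) were Trspfl/fl-LysM-Cre+/-, so both carry the floxed alleles of Trsp, the gene of the selenocysteine tRNA that all selenoproteins need. In the knockout, Cre is driven by the LysM promoter, which is active in myeloid cells. All cultures were grown for 7 days in M-CSF and were either left unstimulated or given lipopolysaccharide (LPS) for 4 h, with 3 arrays for each of the 4 groups. The dose of LPS for the arrays and the age of the mice are not given in the sources used here. Trsp itself was not analysed, and no measurement here tests the labelled genotype. The labels call the replicates biological but name no animal, and the p-values measure the spread between these arrays.

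The core particle of the proteasome, called 20S, is a stack of rings of alpha and beta subunits, and 3 of the beta subunits (Psmb5, Psmb6 and Psmb7) hold the active sites. The 19S cap binds ubiquitin-tagged proteins and feeds them into the core with a ring of ATPases (Psmc genes) and non-ATPase subunits (most Psmd genes). In cells exposed to interferon or microbial products, newly built cores take up Psmb8, Psmb9 and Psmb10 in place of Psmb5, Psmb6 and Psmb7, which gives the immunoproteasome, and the PA28 ring of Psme1 and Psme2 can cap the core. These forms are known for supplying peptides to MHC class I molecules. The 49 genes fell into 31 constitutive subunits of the 20S core and the 19S cap, 3 inducible catalytic subunits, 1 PA28 gene (Psme1), 2 other activators, 8 assembly chaperones or inhibitor genes, 2 forms known from thymus or testis (Psmb11, Psma8), and 2 genes that match by symbol but encode no subunit (Psmc3ip and Psme3ip1). Psme2 has only a probe set that is annotated to Psme2 and Psme2b together, so it is not among the 49. The inducible subunits were compared with the constitutive ones across genotype and stimulus.

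Signals are given as log2 of the scaled signal plus 16, so a difference of 1 is a doubling of that sum and the changes of dim genes are understated. The mean signal per array before scaling was 199.7 to 860.9, and the array of lowest mean signal was replicate 2 of the knockout cells with LPS, on which 47.66% of probe sets lay under 16, against 16.15% to 28.78% on the other arrays. Macrophage markers were high throughout, with a summed signal over the 8 genes of 62900 to 74340. The 5 dendritic cell markers summed to 100.1 to 199.4 on unstimulated arrays and 257.7 to 592.3 on LPS arrays. Ccr7 rose most, from a mean of 4.68 to 7.11 in control cells and from 5.09 to 8.01 in knockout cells. Over both genotypes 3 of the 5 had a positive and 2 a negative change, so the sum does not stand for all of them. The part of this difference in the results below was not tested. The 5 neutrophil markers summed to 1170 to 3460 and 2290 to 7176, the 6 stromal markers to 410 to 7363 and 2769 to 8319, and the 4 lymphoid markers to 36.91 to 107.4 and 67.33 to 116.2, with the unstimulated range first. Among the stromal markers Pdgfrb rose most, from 6.9 to 11.3 in control cells and from 7.7 to 10.7 in knockout cells, and 1 of the 6 had a negative change over both genotypes. All 5 neutrophil markers had a positive change over both genotypes, and 1 passed the test. Camp rose from 8.1 to 9.5 in control cells and from 7.8 to 9.5 in knockout cells. The part of these differences in the results below was not tested either.

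Over both genotypes, 6 of the 49 genes were higher with LPS and 6 lower at an adjusted p under 0.05 (limma, Benjamini-Hochberg over all genes), which is 12.2% in each direction against 11.8% higher and 16.5% lower among all genes tested. The 6 that rose were Psmb8, Psmb9, Psmb10, Psme1, Psmd10 and Psmf1. The 6 that fell were Psma1, Psma8, Psmc1, Psmc3ip, Psmg1 and Psmg2. All 3 inducible catalytic subunits rose, none of the 31 constitutive subunits rose and 2 of them fell. The median change over the 49 genes was -0.01 and over all genes -0.02. Within each genotype, the LPS and unstimulated arrays did not overlap for 6 genes that were higher with LPS (8.71% of all genes) and 5 that were lower (13.6% of all genes), all of them among the 12 named except Psma6, which was higher. Bulk RNA cannot tell more cells of a type from more RNA per cell.

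**Figure D1:**
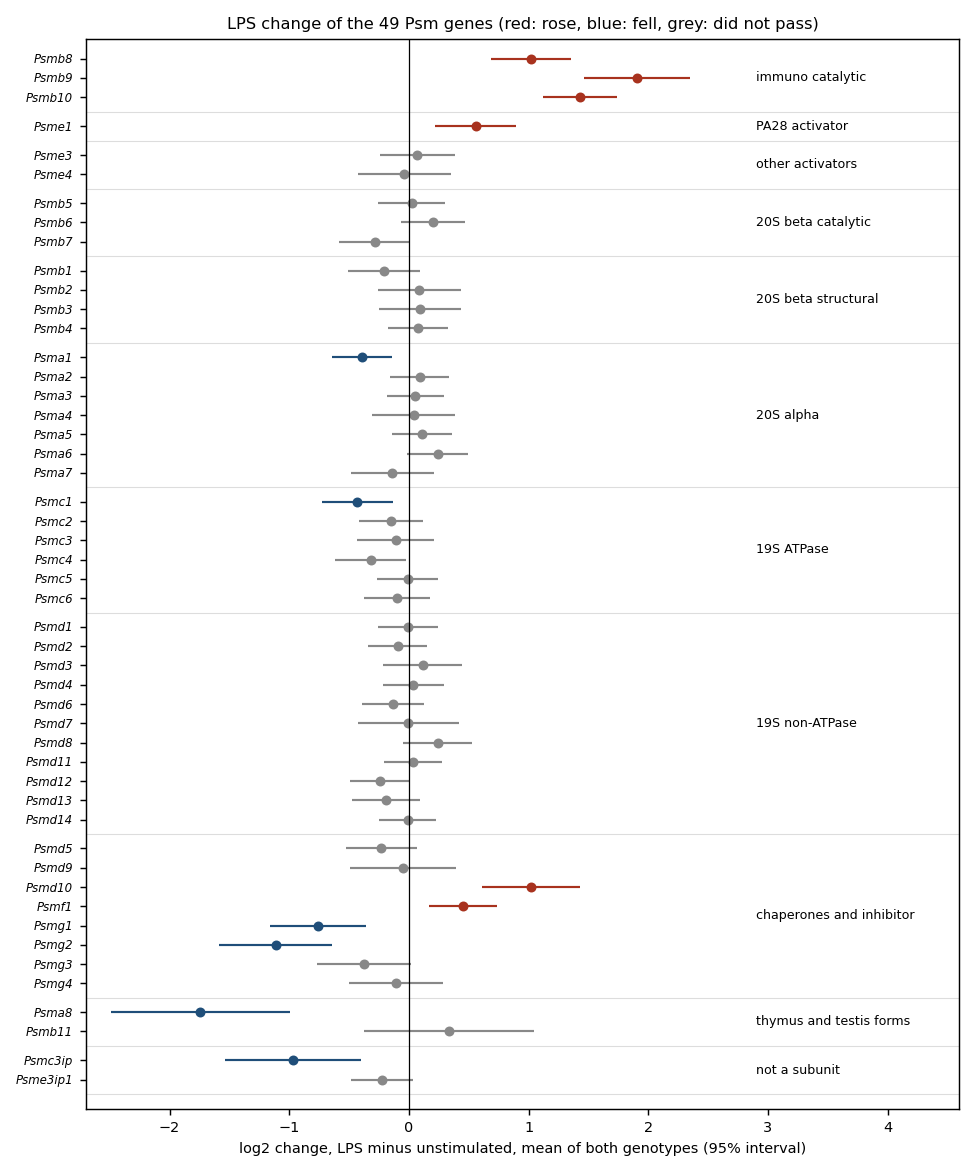
Change with LPS of each of the 49 genes, as the mean of both genotypes in log2 units on the horizontal axis, with its 95% interval (limma, 12 arrays) as a line and genes grouped by role. Red genes rose and blue genes fell at an adjusted p under 0.05, and grey genes did not pass. Psmb9 and Psmb10 lie farthest to the right, at 1.91 and 1.43, while the 31 constitutive subunits lie between -0.43 and 0.24.

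The promoters of the inducible catalytic genes, Psme1 and constitutive counterparts are shown here because the inducible genes rose together while their counterparts did not pass the test. Windows of 250 bases before and 50 after the RefSeq start of the gene (GRCm38.p6) were given for 41 of the 49 genes. The 250 bases before the start of each inducible catalytic gene, and of Psmb5 as a constitutive counterpart, are shown 5′ to 3′ on the strand of the gene, with a match to a searched motif in capitals.
Psmb8 (chr17:34197945-34198194, plus strand): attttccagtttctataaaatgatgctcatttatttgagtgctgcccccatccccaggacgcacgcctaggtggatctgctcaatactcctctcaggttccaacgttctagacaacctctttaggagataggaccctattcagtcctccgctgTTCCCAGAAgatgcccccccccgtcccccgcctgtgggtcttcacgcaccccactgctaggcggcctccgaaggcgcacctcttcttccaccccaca
Psmb9 (chr17:34187331-34187580, minus strand): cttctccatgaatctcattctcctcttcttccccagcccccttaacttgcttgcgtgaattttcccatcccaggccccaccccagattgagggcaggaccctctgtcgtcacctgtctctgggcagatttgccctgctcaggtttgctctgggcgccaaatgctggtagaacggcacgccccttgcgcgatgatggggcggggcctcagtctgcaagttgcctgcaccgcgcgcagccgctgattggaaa
Psmb10 (chr8:105938393-105938642, minus strand): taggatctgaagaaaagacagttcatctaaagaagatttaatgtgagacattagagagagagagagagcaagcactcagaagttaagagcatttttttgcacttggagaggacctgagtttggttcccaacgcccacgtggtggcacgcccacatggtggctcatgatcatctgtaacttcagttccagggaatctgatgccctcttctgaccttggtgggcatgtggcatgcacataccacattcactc
Psmb5 (chr14:54617996-54618245, minus strand): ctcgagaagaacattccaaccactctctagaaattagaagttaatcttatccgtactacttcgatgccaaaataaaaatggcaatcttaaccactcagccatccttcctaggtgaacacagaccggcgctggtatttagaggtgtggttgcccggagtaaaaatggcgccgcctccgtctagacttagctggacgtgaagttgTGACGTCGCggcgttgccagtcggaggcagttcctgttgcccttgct

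The motifs searched on both strands were TTCNNNGAA (letters of a STAT site), GAAANNGAAA (letters of an interferon response element), GGGNNTTTCC (letters of an NF-κB site) and TGACNNNGC (letters of an antioxidant response element), and no match overlapped another in these windows. In the whole window of 300 bases, Psmb8 held TTCNNNGAA, which 8.30% of all 32851 windows hold, and Psme1 held GAAANNGAAA on the opposite strand just after its start, which 3.44% of windows hold. Neither Psmb9 nor Psmb10 held any of the 4. GGGNNTTTCC, which 1.63% of all windows hold, was in none of the windows of Psmb8, Psmb9, Psmb10, Psme1, Psmb5, Psmb6 and Psme3. No window was given for Psmb7, so it was not searched. Psmb5 and Psmb6 held TGACNNNGC, which 12.4% of windows hold, while 6 of the 44 windows of the Psm genes held it. In the same 44 windows GAAANNGAAA was in 5, of which 1 belongs to a gene that rose and 4 to genes that did not pass. TTCNNNGAA was in 3, of which 1 belongs to a gene that rose, 1 to a gene that fell and 1 to a gene that did not pass. The 30 bases around the matches of Psme1 and Psmb6 were these, on the strand of the gene.
Psme1 (chr14:55578493-55578522, plus strand): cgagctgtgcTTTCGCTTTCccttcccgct
Psmb6 (chr11:70525338-70525367, plus strand): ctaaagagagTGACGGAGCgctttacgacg
These matches describe the letters in a window and are not mapped binding sites.

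Psmb8 encodes the inducible subunit that replaces Psmb5, and its probe set (1422962_a_at) rose with LPS in both genotypes. Its log2 signals in replicates 1 to 3 were 11.48, 12.07 and 11.51 in unstimulated control cells and 11.57, 11.17 and 11.58 in unstimulated knockout cells. With LPS they were 12.55, 12.72 and 12.44 in control cells and 12.67, 12.68 and 12.41 in knockout cells. All 6 LPS arrays lay above all 6 unstimulated arrays, and the highest unstimulated array was replicate 2 of the control cells. The mean change over both genotypes was 1.02 (SE 0.15), a 2.02-fold rise with an adjusted p of 0.00047 (limma). It was 0.88 in control cells (adjusted p = 0.017) and 1.15 in knockout cells (adjusted p = 0.0044). The call in control cells was lost when unstimulated control replicate 1 or 3 or control LPS replicate 2 was left out, with changes of 0.78 to 1.08 over all such fits. A second, dimmer probe set of the gene rose by 1.89, and the mean of both probe sets rose by 1.50 in control cells.

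Psmb9 encodes the subunit that replaces Psmb6, and its change was the largest rise among the 49 genes. The signals of its probe set (1450696_at) were 9.87, 10.62 and 10.16 in unstimulated control cells and 9.74, 9.11 and 10.20 in unstimulated knockout cells. With LPS they were 12.07, 11.77 and 12.06 in control cells and 11.88, 11.58 and 11.77 in knockout cells. The LPS arrays again lay above every unstimulated array, and the unstimulated arrays were spread more widely than the LPS arrays. The change was 1.91 (SE 0.20), a 3.75-fold rise with an adjusted p of 4.4e-05 (limma), with 1.75 in control and 2.06 in knockout cells.

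Psmb10, which encodes the subunit that replaces Psmb7, rose by 1.43 (SE 0.14), 2.69-fold, with an adjusted p of 2.8e-05 (limma). Its probe set (1448632_at) gave 11.24, 11.82 and 11.35 in unstimulated control cells and 11.10, 10.94 and 11.20 in unstimulated knockout cells. With LPS the values were 12.73, 12.60 and 12.76 in control cells and 12.87, 12.51 and 12.74 in knockout cells. No LPS array reached down to an unstimulated array, and the change was 1.23 in control cells (adjusted p = 0.0018) and 1.63 in knockout cells (adjusted p = 0.00036). Without scaling between arrays, where the median change of all genes was -0.45, the changes of Psmb8, Psmb9 and Psmb10 were 0.64, 1.28 and 1.01, and the call of Psmb9 alone remained. No call of the 3 genes in a single genotype remained without scaling, where the changes in knockout cells were 0.42, 1.00 and 0.87.

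Psme1, a subunit of the PA28 activator, rose by a smaller amount. Its signals (1417056_at) were 12.00, 12.00 and 12.37 in unstimulated control cells, 12.05, 11.85 and 12.45 in unstimulated knockout cells, 12.65, 12.54 and 12.89 in control cells with LPS and 12.60, 12.47 and 12.91 in knockout cells with LPS. Within each genotype the LPS arrays lay above the unstimulated ones, and replicate 3 was the highest array of all 4 groups. The change was 0.56 (SE 0.15), 1.47-fold, with an adjusted p of 0.019 (limma). In the separate genotypes it was 0.57 and 0.54 and did not pass (adjusted p = 0.11 and 0.12), but passed with the replicate number as a block (adjusted p = 0.019 and 0.024) and with a trimmed mean (0.031 and 0.019). Without scaling the change over both genotypes was 0.19 (adjusted p = 0.79). Without unstimulated knockout replicate 2 the change over both genotypes was 0.49 and its adjusted p of 0.050 missed the threshold.

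The constitutive counterparts stayed near their unstimulated level. Psmb5 (1415676_a_at) gave 12.25, 12.51 and 12.40 in unstimulated control cells, 12.44, 12.59 and 12.60 in unstimulated knockout cells, 12.17, 12.54 and 12.60 in control cells with LPS and 12.46, 12.64 and 12.53 in knockout cells with LPS. Its groups overlapped, and the change was 0.02 with a 95% interval of -0.25 to 0.30. Psmb6 (1448822_at) gave 12.43, 12.14 and 12.48, then 12.49, 12.47 and 12.64 in the same unstimulated groups, and 12.57, 12.41 and 12.69, then 12.84, 12.65 and 12.69 with LPS, a change of 0.20 (-0.07 to 0.47). Psmb7 (1416240_at) gave 13.17, 13.35 and 13.22, then 13.40, 13.11 and 13.39 unstimulated, and 12.80, 12.61 and 13.18, then 13.19, 13.01 and 13.15 with LPS, a change of -0.29 (-0.58 to 0.01). The unstimulated and LPS arrays of these 3 genes overlapped over both genotypes, and none of the 3 passed the test. Within knockout cells Psmb6 did not overlap, with its lowest LPS array at 12.65 just above its highest unstimulated array at 12.64.

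**Figure D2:**
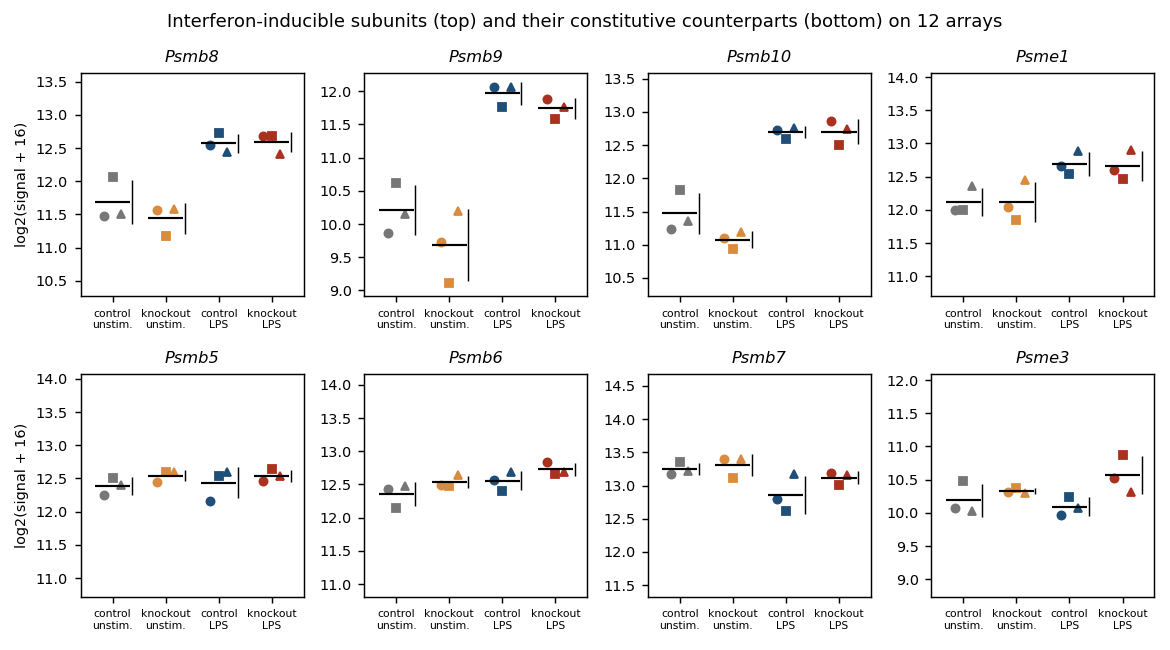
Log2 signal (plus 16) on each of the 12 arrays for the inducible genes in the top row and their counterparts below, in the 4 groups. Circles, squares and triangles are replicates 1, 2 and 3, the horizontal line is the group mean and the vertical line is ± 1 SD (n = 3), and every vertical axis covers the same span. In Psmb8, Psmb9 and Psmb10 all LPS arrays lie above all unstimulated arrays, and in Psmb5, Psmb6 and Psmb7 they overlap.

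The LPS change of each inducible gene was then set against that of its counterpart on the same array, so that differences in the brightness of arrays and probe sets largely cancel. Psmb8 rose by 0.99 more than Psmb5, Psmb9 by 1.71 more than Psmb6 and Psmb10 by 1.71 more than Psmb7. In a two-sided exact permutation of the stimulus within each genotype, each of these had a p of 0.005, the smallest that the 400 arrangements allow, and 0.0067 after adjustment over the 4 pairs tested. The difference was positive in 6 of 6 same-numbered comparisons for each pair, at 0.62 to 1.47 for Psmb8, 0.89 to 2.29 for Psmb9 and 1.46 to 1.98 for Psmb10. These differences were 0.83, 1.55 and 1.61 in control cells and 1.15, 1.87 and 1.81 in knockout cells, in the same order of genes.

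Psme3, the gene of the nuclear activator PA28γ, served as the counterpart of Psme1. Its signals (1418079_at) were 10.07, 10.48 and 10.03 in unstimulated control cells, 10.31, 10.38 and 10.30 in unstimulated knockout cells, 9.96, 10.24 and 10.07 in control cells with LPS and 10.52, 10.87 and 10.32 in knockout cells with LPS. Its change with LPS was 0.07 (95% interval -0.24 to 0.39), and its groups overlapped. Psme1 rose by 0.49 more than Psme3, with an exact permutation p of 0.065 (0.065 adjusted over the 4 pairs), higher in 6 of 6 same-numbered comparisons. With the sign of the same-numbered differences permuted, which keeps the replicate pairing, the exact p was 0.031. That is the smallest p this permutation allows, and 6 of 6 positive differences always give it, so it restates that count. Without quantile normalization the difference was 0.88 to 0.89 (exact permutation p of 0.01) under no scaling, median centring and a trimmed mean. A single factor per array cancels or nearly cancels in a difference within an array, so these are not separate results. Psme4, which encodes the activator PA200, gave 10.95, 11.52 and 10.96 in unstimulated control cells, 11.15, 11.20 and 11.37 in unstimulated knockout cells, 11.54, 10.91 and 11.22 in control cells with LPS and 11.23, 10.69 and 11.33 in knockout cells with LPS. Its groups overlapped and its change was -0.04 (-0.42 to 0.35).

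The probe set shared by Psme2 and Psme2b (1417189_at) cannot be assigned to either gene and was left out of the test. Its signals were 12.27, 12.84 and 12.02 in unstimulated control cells, 12.21, 12.23 and 11.95 in unstimulated knockout cells, 13.18, 13.44 and 13.21 in control cells with LPS and 13.29, 13.30 and 13.20 in knockout cells with LPS. All LPS arrays lay above all unstimulated arrays, and replicate 2 was the highest unstimulated control array.

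The replicate 2 array of unstimulated control cells stood high for these inducible genes together. It was the highest array of its group for Psmb8, Psmb9, Psmb10 and the shared Psme2 probe set. It was also the highest for Irf1, at 10.69 against 9.67 and 9.62, and for Tap1, at 10.42 against 8.44 and 8.97. Among regulators and modifier genes described below, Usp18 stood at 12.66 against 8.21 and 8.31 and Herc6 at 10.73 against 8.05 and 7.75. Stat2 stood at 10.81 against 8.58 and 7.81, and Nlrc5 at 9.61 against 7.75 and 8.42. In the same lists Irf8, at 11.96 against 12.20 and 12.35, and Ubd, at 4.55 against 5.22 and 5.53, were lowest on this array. Without this array the LPS change over both genotypes was 1.11 for Psmb8, 2.01 for Psmb9, 1.51 for Psmb10 and 0.53 for Psme1, and all 4 calls remained. Without replicate 2 of the knockout cells with LPS, the dim array, they were 0.99, 1.95, 1.48 and 0.60, and all 4 calls again remained.

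Psmb9 and Psmb8 lie in the MHC class II region of chromosome 17 with the peptide transporter genes Tap1 and Tap2, in the order Psmb9, Tap1, Psmb8, Tap2 among protein-coding genes of the RefSeq annotation. Psmb9 and Tap1 are read in opposite directions from starts so close that their 300-base windows share 275 bases. Tap1 rose by 3.58 (adjusted p = 5.3e-06, limma) and Tap2 by 2.26 (adjusted p = 2.0e-06), against 1.91 for Psmb9 and 1.02 for Psmb8. Tap1 gave 8.44, 10.42 and 8.97 in unstimulated control cells, 8.63, 8.12 and 8.53 in unstimulated knockout cells, 12.44, 12.53 and 12.48 in control cells with LPS and 12.40, 12.29 and 12.43 in knockout cells with LPS. All 4 neighbours had higher signals on every LPS array than on any unstimulated array.

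**Figure D3:**
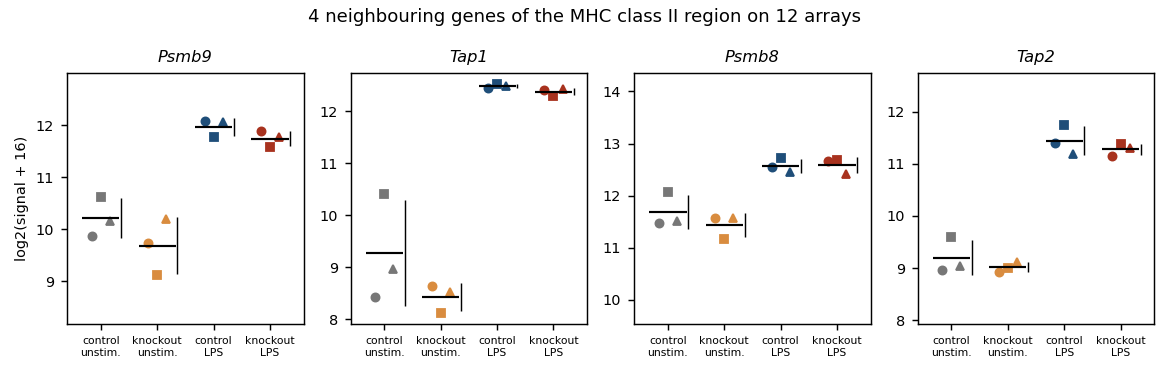
Log2 signal (plus 16) of Psmb9, Tap1, Psmb8 and Tap2 on the 12 arrays, in their order on chromosome 17. Circles, squares and triangles are replicates 1 to 3, horizontal lines are group means and vertical lines ± 1 SD (n = 3), and each vertical axis covers the same span. LPS arrays lie above unstimulated arrays in all 4 panels, and control replicate 2 is the highest unstimulated array for each.

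Among the 11 peptide-loading genes measured, which act after the proteasome in MHC class I presentation, 5 rose and 1 fell over both genotypes, with a median of 0.03. In the same comparison 11.8% of all genes rose and 16.5% fell. Besides the transporters, Tapbpl, a peptide editor, rose by 1.82, Tapbp, which encodes tapasin, by 0.90 and Erap1, an aminopeptidase that trims peptides, by 0.51. Pdia3, a chaperone of the loading complex, fell by 0.50. For H2-K1, H2-D1 and B2m, which encode the MHC class I chains, the brightest probe sets changed by 0.03, 0.03 and 0.00 and did not pass, at signals of 13.27 to 14.01 near the top of the scale. Dimmer probe sets of H2-K1 rose by 0.75 and 1.08 and of H2-D1 by 0.71, 1.30 and 0.88 when every probe set was tested (adjusted p = 0.0068, 0.0028, 0.017, 0.0090 and 0.020, limma), so the brightest ones do not settle a direction for these genes. Of 6 regulators measured, 5 rose and 0 fell, beside the same shares of all genes. Nlrc5, the transactivator of MHC class I genes, rose by 3.61, Irf1, which drives interferon-inducible genes, by 3.26, Stat2, a mediator of type I interferon signals, by 2.92 and Rela, a subunit of NF-κB, by 1.16. Of 4 ubiquitin-like modifier genes measured, Usp18, Herc6 and Ube2l6, which act on the modifier ISG15, rose by 4.48, 3.56 and 2.06, and 0 fell. Unstimulated control replicate 2 was already high for Stat2, Usp18 and Herc6, as given above. Its Stat2 value of 10.81 exceeded the 10.40 of knockout LPS replicate 1. The rise of Usp18 was 3.85 in control cells and 5.11 in knockout cells.

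The 31 constitutive subunits moved little. Their changes with LPS over both genotypes ran from -0.43 to 0.24 with a median of -0.01, and their 95% intervals together covered -0.73 to 0.53. The median SD within a group was 0.11 over these genes and 0.32 over all genes tested. Their mean signals lay at percentiles 85.1 to 99.2 of all genes, and whether signals this high understate a change was not tested. Within control cells 0 of the 31 passed, against 7.09% of all genes higher and 8.54% lower, and within knockout cells 0 passed, against 7.29% and 8.51%. At an unadjusted p under 0.05, 2 of them were lower in control cells, where 28.1% of all genes had such a p, and 1 was lower in knockout cells (28.5%). These counts depend on the scaling. With a trimmed mean in place of quantiles, 8 of them (Psma2, Psma3, Psma5, Psma6, Psmb4, Psmb6, Psmd8 and Psmd11) were called higher and none lower over both genotypes, where 10.8% of all genes were higher and 20.7% lower, and the median of the 31 was 0.16 with that of all genes at -0.02.

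The constitutive genes that fell were Psma1, an alpha-ring subunit, and Psmc1, an ATPase of the cap. Psma1 (1415695_at) gave 12.98, 12.95 and 12.98 in unstimulated control cells, 13.07, 13.01 and 12.89 in unstimulated knockout cells, 12.59, 12.49 and 12.61 in control cells with LPS and 12.70, 12.43 and 12.73 in knockout cells with LPS. All LPS arrays lay below all unstimulated arrays, by a mean of 0.39 (SE 0.11, adjusted p = 0.025, limma). Psmc1 (1416005_at) gave 11.33, 11.15 and 11.32 in unstimulated control cells, 11.53, 11.56 and 11.47 in unstimulated knockout cells, 10.78, 10.64 and 10.94 in control cells with LPS and 11.34, 10.80 and 11.27 in knockout cells with LPS. It fell by 0.43 (SE 0.13, adjusted p = 0.033, limma), and LPS arrays lay below unstimulated ones within each genotype. The calls were lost with the mean of the probe sets and under each other scaling, where Psma1 changed by -0.08 to -0.71 and Psmc1 by -0.42 to -1.04, and in 4 and 8 of the 12 fits without an array. For Psma1 these were unstimulated control replicates 1 and 3 and unstimulated knockout replicates 1 and 2, and Psmc1 kept its call only without unstimulated control replicate 2, control LPS replicate 3 or knockout LPS replicate 1 or 3.

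In the structural beta subunits the smallest p belonged to Psmb1, and among the non-ATPase subunits to Psmd12, and neither passed. Psmb1 (1448166_a_at) gave 12.30, 12.07 and 12.42 in unstimulated control cells, 12.28, 12.18 and 12.40 in unstimulated knockout cells, 12.02, 11.73 and 12.18 in control cells with LPS and 12.34, 11.93 and 12.19 in knockout cells with LPS, a change of -0.21 (95% interval -0.51 to 0.09). Psmd12 (1448492_a_at) gave 12.10, 12.08 and 11.92, then 12.31, 12.31 and 12.20 unstimulated, and 11.77, 11.91 and 12.01, then 11.90, 11.86 and 12.01 with LPS, control cells first, a change of -0.24 (-0.49 to 0.01). All 6 ATPase genes had negative changes, from -0.43 to -0.01, with 1 of 6 passing. The alpha subunits other than Psma1 changed by -0.14 to 0.24, the structural beta subunits by -0.21 to 0.09 and the non-ATPase subunits by -0.24 to 0.24.

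Among the 8 assembly chaperones and inhibitor genes, 2 rose and 2 fell over both genotypes, where 11.8% of all genes rose and 16.5% fell. Psmd10 encodes gankyrin, a chaperone for the ATPase ring of the cap. Its signals (1436559_a_at) were 10.59, 11.18 and 10.08 in unstimulated control cells and 10.36, 10.76 and 10.16 in unstimulated knockout cells. With LPS they were 11.50, 11.56 and 11.56 in control cells and 11.50, 11.53 and 11.58 in knockout cells. The 6 LPS arrays lay close together and above all unstimulated arrays, where replicate 2 was the highest and replicate 3 the lowest in both genotypes. The rise was 1.02 (SE 0.19, adjusted p = 0.0017, limma), with 0.93 in control cells (adjusted p = 0.035) and 1.11 in knockout cells (adjusted p = 0.015). The call in control cells was lost without unstimulated control replicate 1 or 3, unstimulated knockout replicate 1 or any control LPS array, and that in knockout cells without unstimulated knockout replicate 1 or 3, at changes of 0.66 to 1.21 and 0.98 to 1.28. Both were also lost with median centring, at changes of 1.04 (adjusted p = 0.053) and 0.78 (adjusted p = 0.11). Without scaling the change over both genotypes was 0.41 (adjusted p = 0.49), with 0.74 in control and 0.08 in knockout cells, and no call remained. The other cap chaperones, Psmd5 and Psmd9, changed by -0.23 and -0.05 and did not pass.

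Psmg1 and Psmg2 encode the chaperone pair that starts the alpha ring, and both fell. Psmg2 (1425373_a_at) gave 10.88, 11.24 and 10.97 in unstimulated control cells, 11.36, 11.09 and 11.06 in unstimulated knockout cells, 9.99, 9.58 and 10.46 in control cells with LPS and 10.02, 9.35 and 10.52 in knockout cells with LPS. It fell by 1.11 (SE 0.22, adjusted p = 0.0026, limma), 2.16-fold, and no LPS array reached an unstimulated one. One other probe set of Psmg2 fell by 1.36, while another, dimmer one changed by 0.37 and did not pass. The mean of the probe sets changed by -0.70 and did not pass (adjusted p = 0.059). Psmg1 (1448307_at) gave 10.37, 10.70 and 10.63 in unstimulated control cells, 10.59, 10.76 and 10.49 in unstimulated knockout cells, 9.70, 9.44 and 9.99 in control cells with LPS and 10.37, 9.39 and 10.07 in knockout cells with LPS. It fell by 0.76 (SE 0.18, adjusted p = 0.0089, limma), with the lowest value of either gene in each LPS group on replicate 2. Psmg3 and Psmg4, the later-acting chaperones of the same ring, changed by -0.38 and -0.11 and did not pass.

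Without the dim array, the changes over both genotypes were -0.96 for Psmg2 and -0.62 for Psmg1 and both calls remained. In knockout cells alone, leaving out that array moved Psmg2 from -1.20 (adjusted p = 0.021) to -0.90 (adjusted p = 0.069), and the call was also lost without unstimulated knockout replicate 1 or 2. The calls of Psmg1 and Psmg2 in control cells (-0.85 and -1.02, adjusted p = 0.045 and 0.043) were each lost in 9 of the 12 fits that left out an array. The exceptions were control LPS replicate 3 and knockout LPS replicate 2 for both, knockout LPS replicate 1 for Psmg1 and knockout LPS replicate 3 for Psmg2.

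Psmf1 encodes PI31, known as an inhibitor of the 20S core in vitro, and its probe sets disagreed. The brightest (1451337_at) gave 9.43, 9.24 and 9.20 in unstimulated control cells, 9.24, 9.21 and 9.71 in unstimulated knockout cells, 9.79, 9.80 and 9.90 in control cells with LPS and 9.84, 9.69 and 9.75 in knockout cells with LPS. It rose by 0.45 (SE 0.13, adjusted p = 0.022, limma), with 1 unstimulated knockout array inside the range of the LPS arrays. The call was lost under each other scaling, and without unstimulated control replicate 3 or unstimulated knockout replicate 1 or 2. Another probe set of the gene (1424370_s_at) fell by 0.60, and the mean of its probe sets changed by -0.16, so no direction for the gene is drawn.

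**Figure D4:**
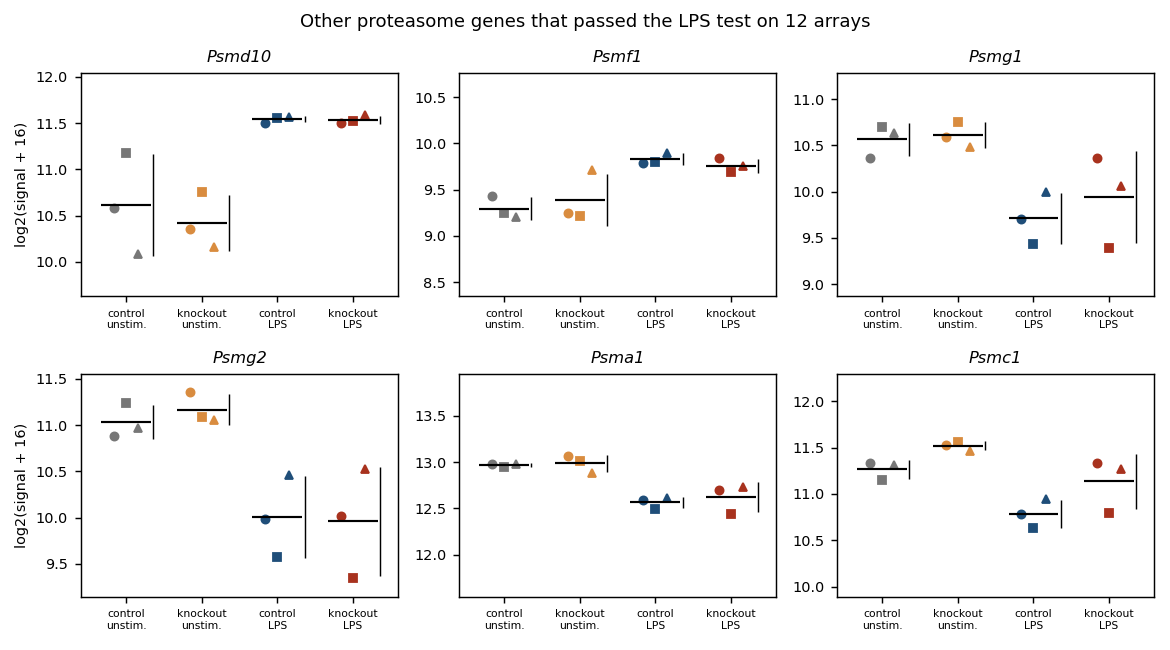
Log2 signal (plus 16) on the 12 arrays for the other expressed subunit, chaperone and inhibitor genes that passed the LPS test over both genotypes. Circles, squares and triangles are replicates 1 to 3, horizontal lines are group means and vertical lines ± 1 SD (n = 3), and each vertical axis covers the same span. The 6 LPS arrays of Psmd10 nearly coincide, at 11.50 to 11.58, and Psmg1 and Psmg2 spread most with LPS.

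Psma8 encodes the alpha subunit known from testis and Psmb11 the beta subunit known from thymus. Psma8 (1427170_at) gave 7.05, 7.54 and 7.79 in unstimulated control cells, 7.35, 7.52 and 6.96 in unstimulated knockout cells, 6.42, 4.96 and 5.32 in control cells with LPS and 6.29, 4.56 and 6.20 in knockout cells with LPS. It fell by 1.74 (SE 0.34, adjusted p = 0.0027, limma), and the lowest LPS arrays, at 4.56 and 4.96, are close to 4, the value that a signal of 0 takes on this scale. In knockout cells alone the fall of 1.59 (adjusted p = 0.045) became 1.03 without the dim array (adjusted p = 0.14), and its call was lost in 8 of 12 such fits, against 4 of 12 for the fall of 1.89 in control cells (adjusted p = 0.021). Psmb11 (1453150_at) lay at 4.32 to 6.27 on all arrays, and was the only one of the 49 genes with a mean under 6. Psmc3ip, a factor of meiotic recombination named for its binding to Psmc3, gave 7.69 to 8.79 on unstimulated arrays and 6.63 to 8.01 on LPS arrays, which overlap. It fell by 0.97 over both genotypes (adjusted p = 0.016, limma). In the separate genotypes its changes of -0.92 and -1.01 did not pass (adjusted p = 0.12 in control and 0.089 in knockout cells), but passed with the replicate block (adjusted p = 0.019 and 0.013), with median centring (0.040 and 0.011) and with a trimmed mean (0.029 and 0.026).

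The 49 genes have 103 probe sets, with 81 of them on the 27 genes that have more than 1, and some dimmer ones moved while the brightest did not. When every probe set was tested, 13 probe sets of Psm genes rose and 11 fell over both genotypes, against 10.5% of all probe sets higher and 14.3% lower. Psma6, an alpha-ring subunit whose next protein-coding neighbour is Nfkbia, changed by 0.24 in its brightest probe set and by 0.34 in the next, which did not pass, while 1435316_at rose by 2.13 and 1435317_x_at by 1.37. Dimmer probe sets of Psma3, Psma5, Psmc6 and Psme4 rose by 0.91, 1.39, 0.56 and 1.00 in the same test, and dimmer ones of Psmd13 and Psmd9 each fell by 0.96. Which transcripts these probe sets detect was not tested.

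Other genes that act with the proteasome, but lie outside the symbol rule, were mostly lower where they changed. Of 11 such partners measured, 1 rose and 5 fell over both genotypes, with a median of -0.22, where 11.8% of all genes rose and 16.5% fell. Nfe2l1, the transcription factor that raises proteasome genes when the proteasome is impaired, rose by 0.75 (adjusted p = 0.0046, limma). The ubiquitin shuttle Ubqln2 fell by 0.79, the deubiquitinase Uchl5, which docks on the cap, by 1.04, and Akirin2, which takes part in nuclear import of proteasomes, by 0.57. Usp14, another deubiquitinase of the cap, fell by 0.44 and Ubqln1 by 0.42. Pomp, the chaperone of core maturation, changed by -0.22 and did not pass.

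Loss of Trsp was compared within each stimulus. None of the 49 genes passed in unstimulated cells, where 0% of all genes did, in LPS-stimulated cells (0.011% of all genes) or over both stimuli (0.022%, limma). At an unadjusted p under 0.05 there were 0 of the 49 genes in unstimulated cells, where 2.39% of all genes had such a p, 4 with LPS (5.78%) and 3 over both stimuli (4.88%). The methods' t-test, here with Benjamini-Hochberg adjustment and a threshold of 0.05, also called 0 in each stimulus. The study's own p threshold, for which no such adjustment is named, was not applied. The 4 with LPS were all higher in knockout cells, namely Psmd5 by 0.53, Psmd3 by 0.54 (0.36 without the dim array), Psme3 by 0.48 and Psmd13 by 0.43, with adjusted p of 0.78 to 0.84.

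The smallest unadjusted p in unstimulated cells belonged to Psmb10, which was 0.39 lower in knockout cells (95% interval -0.83 to 0.05) with no overlap between the arrays, then to Psmb9, 0.53 lower (-1.15 to 0.09) with overlap, and to the ATPase gene Psmc4, 0.29 higher (-0.13 to 0.71). All 3 had an adjusted p of 1.00. Psmb8 differed by -0.25 and Psme1 by -0.01 in the same cells. With LPS the differences of Psmb8, Psmb9, Psmb10 and Psme1 were 0.02, -0.23, 0.01 and -0.03. Without unstimulated control replicate 2, which stood high as described above, the unstimulated differences were -0.22 for Psmb10, -0.33 for Psmb9 and -0.06 for Psmb8. Without unstimulated knockout replicate 2 they were -0.32, -0.24 and -0.11 in the same order.

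The change with LPS did not differ detectably between genotypes for any of the 49 genes (interaction, limma, 0 called at an adjusted p under 0.05, 0% of all genes, and 0 at an unadjusted p under 0.05 against 3.05% of all genes). The interaction, as LPS change in knockout minus control cells, was 0.27 for Psmb8 (95% interval -0.40 to 0.94), 0.30 for Psmb9 (-0.58 to 1.19), 0.40 for Psmb10 (-0.22 to 1.02) and -0.03 for Psme1 (-0.71 to 0.65). Without unstimulated control replicate 2 these values were 0.08, 0.10 and 0.22 for Psmb8, Psmb9 and Psmb10, and without unstimulated knockout replicate 2 they were 0.13, 0.02 and 0.33. The intervals are wide beside the changes themselves, so an equal change is not shown. The smallest p values were those of Psmd3 at 0.50 (0.32 without the dim array), Psmb11 at 1.06 and Psmb10, all with adjusted p of 1.00.

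**Figure D5:**
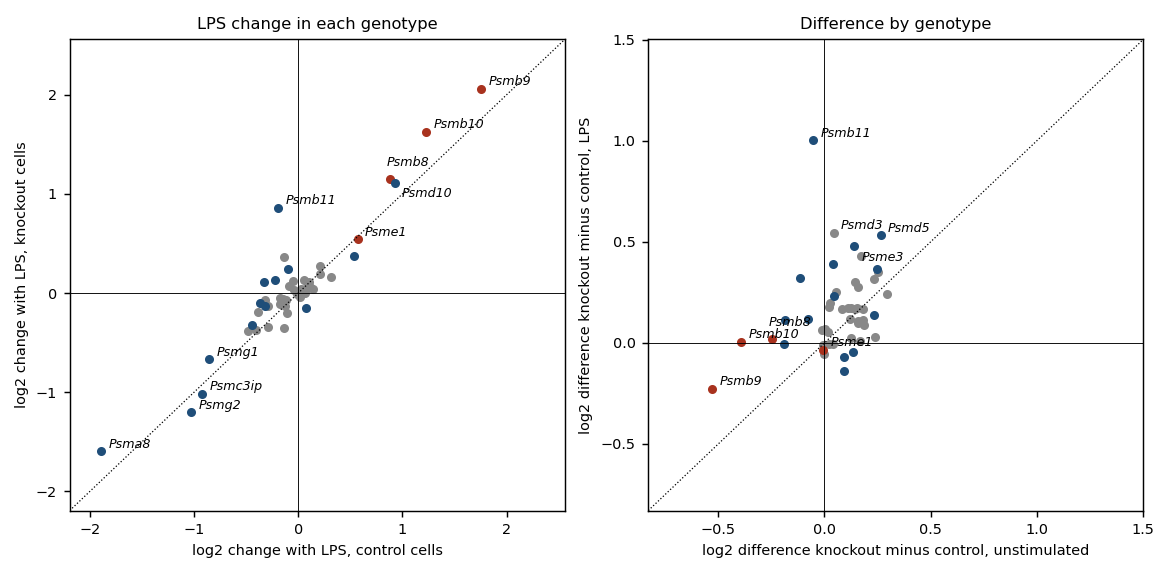
Left, log2 change with LPS in knockout cells against that in control cells for the 49 genes. Right, log2 difference between knockout and control cells with LPS against that in unstimulated cells. Red marks Psmb8, Psmb9, Psmb10 and Psme1, grey the 31 constitutive subunits and blue the others, and the dotted line marks equal values. In the left panel the genes with large changes lie near the line, and in the right panel most grey points lie above 0 on both axes, up to 0.54.

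The constitutive subunits leaned towards higher values in knockout cells without passing the test. In unstimulated cells 28 of the 31 differences were positive, with a median of 0.13 against 0.04 over all genes, and with LPS 27 were positive, with a median of 0.17 against 0.04. Without LPS, 10 of the 49 genes had no overlap between the arrays of the genotypes, 9 higher and 1 lower (Psmb10) in knockout cells, against 4.16% of all genes higher and 3.17% lower. With LPS they did not overlap for 6 of the 49, all higher, against 5.37% of all genes higher and 3.77% lower. Of the 31 constitutive subunits alone, 8 did not overlap in unstimulated cells and 3 with LPS, all higher in knockout cells. These subunits share arrays and a scale, so they are not separate pieces of evidence. The lean with LPS depended on the scaling. Its median was 0.27 with a trimmed mean, -0.14 with median centring and -0.65 without scaling, where the median of all genes was 0.10, -0.08 and -0.60. In unstimulated cells the median stayed positive, at 0.04 to 0.15.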

How the data were processed

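BMDM cultures were profiled on GeneChip mouse arrays. Per the study's methods the arrays were normalized with Expression Console, and the deposited values are linear signal intensities of 45101 probe sets. How probes were summarized and the genome build are not given in the sources used here. Control probe sets (64) were left out, signals were quantile-normalized over the other 45037, 16 was added and log2 was taken. Probe sets with 1 gene symbol (34945) were kept, and the probe set of highest mean stood for a gene (18193 genes). Symbols come from the platform annotation.

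The 4 groups were fitted together with limma 3.58.1 in R 4.3.3 (8 residual degrees of freedom), with Benjamini-Hochberg adjustment over all genes and a threshold of 0.05. Pairs of subunits were tested by exact permutation in Python 3.11.15. The fit was tested on simulated data. The number of arrays limits the precision. After group means were removed, same-numbered arrays of compared groups correlated at 0.126 to 0.442 (12 of 12 pairs over 0.1), so the numbers were taken to pair the cultures. The main fit and the permutation of the stimulus within genotype did not use this pairing. Results of a fit with the replicate number as a block, which left 6 residual degrees of freedom, stand beside those calls that it changed.

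The genes and lists were chosen with earlier results of these data known. Values were given on every array for the inducible subunits, their counterparts, Psme4 and the gene of smallest LPS p in each other class, for genes that changed by more than 1 log2 unit and passed, and, chosen after their values were seen, Psmg1, Psmf1 and the other genes described by array. Genes outside the rule are the up to 4 of smallest p in each list, with others chosen after their values were seen. Some genes of the lists are not analysed here. Sequences are from RefSeq.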

Additional observations from a re-analysis of the deposited data

Results flagged for a closer look

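The probe set annotated to Psme2 and Psme2b together lay outside the test, since it carries several gene symbols. Its log2 signal was 1.02 higher with LPS than without, as the mean of both genotypes, with 0.90 in control cells and 1.13 in knockout cells. The difference was not tested for this probe set, and the part of each gene in it cannot be told apart.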

How the results depend on the processing

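Psmb8, Psmb9 and Psmb10 kept their rise over both genotypes under every scaling other than none, where only Psmb9 stayed called, and in every fit that left out an array. The 3 pair differences kept their call throughout, at 0.91 to 1.07, 1.58 to 1.86 and 1.67 to 1.78 without an array. Psme1 minus Psme3 was 0.36 to 0.61 without an array, and passed in 2 of 12 such fits (without unstimulated knockout replicate 3 or LPS knockout replicate 2). It also passed at 0.49 with the replicate block, where the p only restates that 6 of 6 differences were positive, and at 0.88 without scaling. Median centring and a trimmed mean gave 0.88 and 0.89. A single factor per array cancels or nearly cancels in every pair difference, so for the pairs these scalings are not checks separate from no scaling. The planned pair of Psme2 and Psme3 was not run.

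Without scaling, 0 genes were higher and 1 was lower with LPS in control cells, 0 higher and 4 lower in knockout cells and 1 higher over both genotypes, where the median change of all genes was -0.45. Median centring gave 4 lower in knockout cells, and a trimmed mean gave 13 higher over both. All probe sets gave 10 higher in control cells, 9 higher in knockout cells, and 13 higher and 11 lower over both. Averaging a gene's probe sets gave 1 lower in knockout cells. A pseudocount of 1 gave 0 lower in control and 1 in knockout cells. A fit of the compared arrays alone gave 2 higher and 1 lower in control and 1 lower in knockout cells, and the methods' t-test 1 higher and 1 lower in control cells; neither gives a value over both genotypes. Leaving out replicate 2 of all groups, with the replicate block, gave 0 lower in control, 0 in knockout cells and 3 over both. Leaving out unstimulated control replicate 2 and LPS knockout replicate 2 together, chosen after seeing the data, gave 0 lower in knockout cells.

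Leaving out each array gave 2 to 4 higher and 0 to 3 lower in control cells, 3 to 4 and 0 to 3 in knockout cells, 4 to 6 and 4 to 7 over both, and 0 to 0 for genotype and interaction. Psmf1 turned to -0.068 in control, -0.25 in knockout and -0.16 over both with the mean of its probe sets, to -0.89 in knockout and -0.40 over both without scaling, and to -0.19 in knockout cells with median centring. Psme1 turned to -0.17 in knockout cells without scaling. The replicate block added calls for Psme1 (above) and for Psmc3ip in both genotypes, and changed no other call. Of 876 values of single genes, 721 kept direction and side of the threshold, 124 lost and 24 gained a call and 7 turned. The cause of these changes was not tested. No detection call was used, so how far signals such as those of Psma8 lie above background was not assessed.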
